A study of Homo sapiens with 8 samples.

Results

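The mitochondrial ribosomal protein genes (MRP genes) were taken as the protein-coding genes whose symbol is MRPL or MRPS followed by a number, without pseudogenes, and with at least 10 counts in 2 or more libraries. Of 78 genes with such a symbol, 76 met the count rule, out of 60617 genes in the count table and 13250 protein-coding genes that met the same rule. All 76 were also among the 17693 genes tested. By their known place in the ribosome 50 belong to the large subunit and 25 to the small subunit. MRPS36 was assigned to neither, because its product is also known as a subunit of the 2-oxoglutarate dehydrogenase complex. RNA was sequenced from MCF-10A, an established line of human breast epithelial cells that does not form tumours, in a study titled for protein damage in the cytoplasm, HRI, eIF2α and the Hsp70-Bag3 module. The 4 groups were cells labelled Empty or NeuT, each either left untreated or given 1 µM JG-98, an inhibitor of Hsp70 chaperones, for 12 h, with 2 libraries per group. The labels name neither the construct in either line nor whether a line is 1 clone or a pool, and do not say that replicates came from separate cultures, so p-values measure the spread between these libraries.

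Mitochondria hold their own ribosome, which translates the few messages encoded by mitochondrial DNA into core subunits of the respiratory chain. Its RNAs come from mitochondrial DNA, whereas all of its proteins are encoded in the nucleus, made by cytosolic ribosomes and imported. Some MRPs descend from bacterial ribosomal proteins and others have no bacterial counterpart. In MCF-10A a loss or gain of MRP messages therefore concerns nuclear transcripts, read here from poly(A)-selected RNA.

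Promoters of the MRP genes carry short sequences known for genes of mitochondrial biogenesis, and a few are shown to make these visible. Promoter windows of 250 bases before to 50 bases after the start came from RefSeq (GRCh38.p14) and were matched for 67 of 76 MRP genes, giving 83 windows. Each set of letters was searched on both strands. CCGGAAG, the core bound by ETS family factors such as GABP, was present in 38.6% of the MRP windows, in 15.9% of 15610 windows of other tested protein-coding genes and in 10.3% of all 35116 windows. It stood just upstream of the start in the following 4 genes, with the matching letters in capitals on either strand: MRPS26 (chr20:3045992-3046051, plus strand), MRPS22 (chr3:139343894-139343953, plus strand, with the letters once on each strand), MRPS31 (chr13:40771191-40771250, minus strand) and MRPL58 (chr17:75012610-75012669, plus strand).
MRPS26: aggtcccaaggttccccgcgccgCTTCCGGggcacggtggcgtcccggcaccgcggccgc
MRPS22: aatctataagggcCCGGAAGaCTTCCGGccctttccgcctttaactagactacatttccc
MRPS31: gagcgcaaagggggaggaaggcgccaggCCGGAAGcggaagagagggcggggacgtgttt
MRPL58: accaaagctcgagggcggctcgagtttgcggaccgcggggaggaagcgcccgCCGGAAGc

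AAGATGGC, the core of the YY1 motif, was found in 26.5% of MRP windows, in 4.39% of those of other tested protein-coding genes and in 2.89% of all windows. By position, 15 of 83 (18.1%) held it on the gene's own strand within the 50 bases after the start, against 2.33% of the other tested genes' windows and 1.25% of all. Short stretches around it are given, with the letters in capitals, for MRPL49 (chr11:65122336-65122359, plus strand), MRPS27 (chr5:72320209-72320232, minus strand) and MRPL42 (chr12:93467514-93467537, plus strand).
MRPL49: agcaggtaAAGATGGCagctacca
MRPS27: tacgctccAAGATGGCtgcctcca
MRPL42: attgaaacAAGATGGCgggttcgt

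At least 1 of these 2 motifs was present in 53.0% of MRP windows, against 19.3% and 12.6% in the other tested genes and in all windows. The remaining motifs searched were near the level of other genes. GCATGCGC, the core of the NRF1 site, was in 6.02% of MRP windows and 4.39% of those of other tested genes, and the full palindromic NRF1 site was in 1.20% and 1.83%. The E-box CACGTG was in 10.8% and 8.92%. TGATGNAAN, the element bound by CEBP-ATF pairs such as those containing ATF4, a factor made more when eIF2α is phosphorylated, was in 1.20% of MRP windows and 2.15% of those of other tested genes. These are matches of letters and not measured binding sites.

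A second feature of the loci was close head-to-head neighbours. For 17 of 76 MRP genes (22.4%) another protein-coding gene started within 1000 bases on the opposite strand, pointing away, against 1472 of 19951 protein-coding genes (7.38%) of GENCODE 29. That background includes genes not expressed here, and the share over expressed genes was not counted. MRPL46 and MRPS11 are each other's neighbour, with starts 34 bases apart. MRPL47 starts 36 bases from NDUFB5 and MRPL36 starts 34 bases from NDUFS6, both subunits of respiratory complex I.

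Total counts lay between 37341458 (Empty with JG-98, replicate 1) and 56861971. Together the MRP genes took 0.435% to 0.449% of all counts in the 4 Empty libraries and 0.341% to 0.388% in the 4 NeuT libraries, and the lowest share was that of NeuT with JG-98, replicate 2. This library stood apart among the members, with the lowest level of 59 of 76 MRP genes, and the main counts and medians under the drug are given with and without it. Replicate 1 of Empty with JG-98, the library with the fewest counts, had the highest level of 33 of 76, and the line difference under the drug is also given without it. All 8 epithelial markers (keratins, CDH1, EPCAM, TP63) were present, with summed levels of 17655 to 19589 CPM (counts relative to TMM-scaled library size), but 7 of the 8 were called between the untreated lines. EPCAM was lower in NeuT by a log2 value of -1.07 (edgeR adjusted p 7.8e-10) and TP63 higher by 1.45 (3.8e-07). Summed fibroblast markers were 8.52 to 9.76 CPM in Empty and 68.4 to 83.0 CPM in NeuT, with LUM at or below 3 counts in every library. The gap came from DCN (decorin), at a mean of 3.38 CPM in untreated Empty and 72.6 CPM in untreated NeuT, the 1 gene called of the 4 fibroblast markers tested, whereas COL1A1 was at 4.70 to 5.83 CPM over all libraries and the rest were under 1 CPM in every library. Leukocyte markers summed to 5.01 to 6.99 CPM in Empty and 10.7 to 12.3 CPM in NeuT, with CD3E at or below 3 counts and CD14 called higher in untreated NeuT (0.80, edgeR adjusted p 4.1e-05). Endothelial markers summed to 10.6 to 15.1 CPM in Empty and 8.29 to 9.94 CPM in NeuT, with PECAM1 called lower in untreated NeuT (-0.46, edgeR adjusted p 0.016). CDH5 was called higher (2.22, edgeR adjusted p 0.0078), on only 4 and 7 counts in untreated Empty and 34 and 16 in untreated NeuT. VWF, at 2 to 18 counts in a library, was not called. The part of these marker differences in the line differences below was not tested. In bulk RNA fewer cells of a type and less RNA per cell cannot be told apart.

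Levels between genes were compared as CPM per kilobase of the gene length in the count table, averaged over 8 libraries. The MRP genes spanned 0.243 to 115.8 CPM per kilobase with a median of 18.0. The highest levels were those of MRPS34 (115.8), MRPL41 (114.4), MRPL15 (79.7), MRPL37 (67.6) and MRPL51 (65.2). The order of the first pair depended on the group, since MRPL41, a large-subunit protein without a bacterial counterpart, was at 107.8 CPM per kilobase in untreated Empty and 120.7 in untreated NeuT, and MRPS34, a small-subunit protein of the same kind, at 127.2 and 119.0. The lowest were MRPS24 (0.243), MRPL38 (0.326), MRPL45 (0.356), MRPL46 (0.654) and MRPS18C (1.38). Median levels were 20.1 CPM per kilobase in the large subunit and 10.1 in the small subunit.

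**Figure D1:**
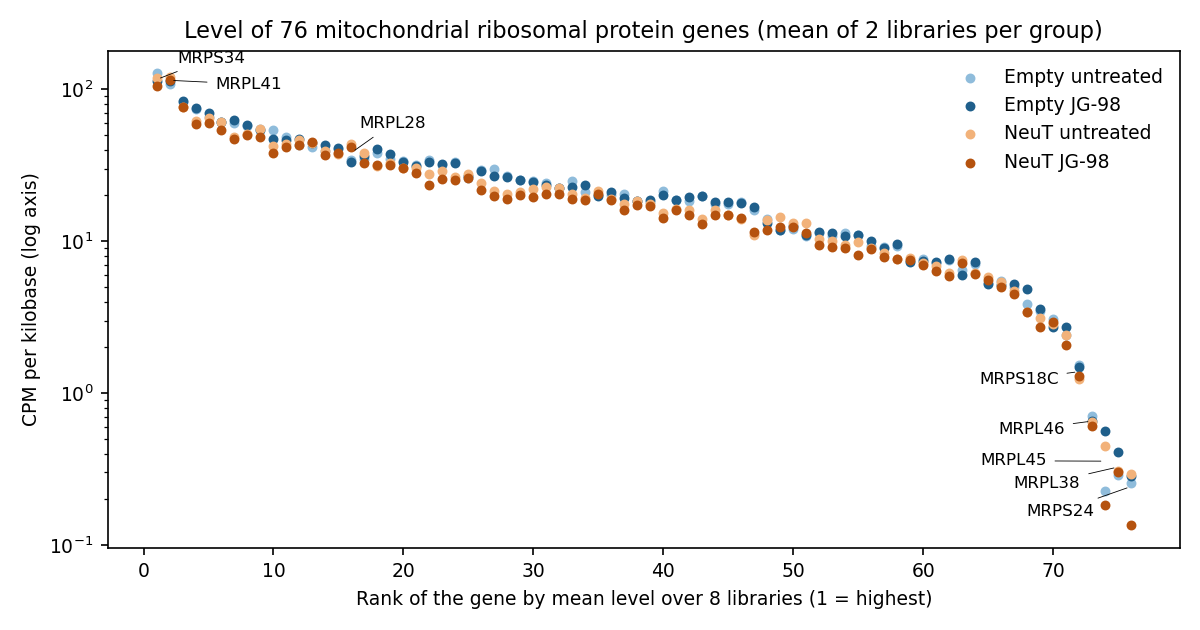
Level of each of the 76 MRP genes in CPM per kilobase (log axis) against its rank, 1 point per group (mean of 2 libraries). MRPS34 and MRPL41 lead, 0.5 of the genes lie between 8.58 and 32.3, and MRPL46, MRPL45, MRPL38 and MRPS24 fall below 1 CPM per kilobase.

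Several members rest on few counts. MRPL45 had 10 to 97 counts in a library, MRPS24 17 to 49 and MRPL38 54 to 88. MRPL45 also differed between replicates of a group, with 0.262 and 1.65 CPM in the Empty libraries with JG-98 and 0.183 and 1.35 CPM in the untreated NeuT libraries. MRPS18B was not a member, since it was listed at 0 in all 8 libraries, and 20 of the 31 other protein-coding genes starting within 500 kb of it also had at most 3 counts in every library. MRPL53 had 1 count in total and shares 99.4% of its exonic bases with another gene of the table. The strand setting of the counting is not given in the sources used here. Exonic bases shared with other genes of the table on either strand reached 69.5% for MRPL12, 47.0% for MRPS18A, 41.1% for MRPL38, 40.2% for MRPS18C, 36.9% for MRPL43, 36.0% for MRPL9, 35.8% for MRPS28 and 27.6% for MRPL51. They were 25% for MRPS17, 23.2% for MRPS24, which overlaps the readthrough gene URGCP-MRPS24, 22.4% for MRPS25, 21.4% for MRPL4, 21.1% for MRPL33 and 21.0% for MRPL19. Values of these genes are uncertain, and the shared percentages do not measure by how much. Pseudogene copies took few counts, with 5 of 79 reaching 10 counts in 2 libraries. MRPS36P1 had 32.2% as many counts as MRPS36, MRPS18CP7 7.79% as many as MRPS18C, and MRPL3P1 6.64% as many as MRPL3.

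The first comparison asked how the lines differed without drug. MRP genes that passed the test were lower in NeuT in 24 cases and higher in 3, and 49 were not called. Here and below a gene is described as called, or as having fallen or risen, where edgeR's quasi-likelihood test gave a Benjamini-Hochberg adjusted p under 0.05 over all genes tested. The 24 were 31.6% and the 3 were 3.95% of the 76 MRP genes, 35.5% in all, while among all 17693 genes 42.0% were called, 20.8% lower and 21.2% higher. The median log2 difference, NeuT over Empty, was -0.12 for the MRP genes, 56 of which were below 0, and -0.02 for all genes. In 45 MRP genes both NeuT libraries lay below both Empty libraries and in 13 above, where the shares over all genes were 37.1% and 36.1%. Both subunits were represented, with 16 falls and 3 rises among 50 large-subunit genes (median -0.13) and 8 falls and no rise among 25 small-subunit genes (median -0.10).

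MRPS9 (ENSG00000135972, chromosome 2, 105038069 to 105099960), whose bacterial counterpart contacts transfer RNA on the small subunit, showed the largest fall. Its level was 29.7 and 28.6 CPM in untreated Empty and 20.8 and 19.5 CPM in untreated NeuT, and it was 31.5 and 29.8 CPM in Empty with JG-98 and 20.1 and 21.7 CPM in NeuT with JG-98. All 4 NeuT libraries were below all 4 Empty libraries. The log2 difference without drug was -0.53 (SE 0.079), with an edgeR adjusted p of 3.4e-05. Of its exonic bases 20.3% are shared with its antisense gene MRPS9-AS1, so reads of the 2 cannot be told apart without strand.

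MRPL33 (chromosome 2, 27771717 to 27988087), a small protein of the large subunit with a bacterial counterpart, was at 31.4 and 29.4 CPM in untreated Empty and at 20.8 and 22.2 CPM in untreated NeuT. The drop was -0.50 on the log2 scale (SE 0.080; edgeR adjusted p 7.2e-05), and no NeuT library reached an Empty one. MRPL44 (chromosome 2, 223957463 to 223967714), a large-subunit protein with a ribonuclease III-like fold whose mutation is known in cardiomyopathy, was at 51.6 and 48.9 CPM against 36.5 and 36.1 CPM. NeuT was thus lower by a log2 value of -0.47 (SE 0.075; edgeR adjusted p 7.3e-05). MRPL35 (chromosome 2, 86199355 to 86213790), another large-subunit protein, was at 83.3 and 80.0 CPM against 60.5 and 57.6 CPM, also a difference of -0.47 (SE 0.062; edgeR adjusted p 9.4e-06).

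These 4 genes, the largest falls, all lie on chromosome 2. Of the 7 MRP genes there the 4 fell, and the median of the 7 was -0.47, while 655 other expressed genes of that chromosome (mean log2 CPM over 3) had a median of -0.02. The other 3, MRPL19 (-0.14), MRPS5 (-0.04) and MRPL30 (-0.01), were not called. MRPL19 was called lower under 5 of 17 alternatives, among them total counts (-0.21, adjusted p 0.0071) and limma-voom (0.048). The chromosome was singled out after the values were seen, and the 4 genes lie between positions 27771717 and 223967714 on it.

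MRPL11 and MRPL2 followed. MRPL11 (chromosome 11), part of the stalk base where translation factors dock, was at 67.7 and 67.6 CPM in untreated Empty and 52.2 and 52.3 CPM in untreated NeuT (log2 difference -0.37, SE 0.063, edgeR adjusted p 0.00013). MRPL2 (chromosome 6), a core protein near the peptidyl transferase centre, was at 38.8 and 39.5 CPM against 30.2 and 30.9 CPM (log2 difference -0.36, SE 0.087, edgeR adjusted p 0.0029). In both genes the libraries of each line lay close together and the lines did not overlap. Among the genes reported whatever their values, MRPL3 fell by 0.30 and MRPL12, the stalk protein also known to bind the mitochondrial RNA polymerase, by 0.28 on the log2 scale. The call of MRPL12 was lost without either untreated Empty replicate or without replicate 1 of untreated NeuT (adjusted p 0.059 to 0.24). MRPL12 shares most of its exonic bases with another gene, as given above.

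3 members rose. MRPL28 (chromosome 16, 366969 to 371289), a large-subunit protein with a bacterial counterpart, was at 103.6 and 105.4 CPM in untreated Empty and at 132.6 and 133.0 CPM in untreated NeuT. Its log2 difference was 0.35 (SE 0.054; edgeR adjusted p 5.8e-05), and the NeuT libraries stayed above the Empty libraries with the drug as well. MRPL43 rose by 0.30 (edgeR adjusted p 0.016), from 40.8 and 36.2 CPM to 46.1 and 48.5 CPM. MRPL55 rose by 0.28 (edgeR adjusted p 0.011), from 23.4 and 21.1 CPM to 26.3 and 27.9 CPM. Both calls were lost when libraries were scaled by total counts (adjusted p 0.0617 and 0.0502) and without replicate 2 of either untreated group (0.0845 to 0.182).

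**Figure D2:**
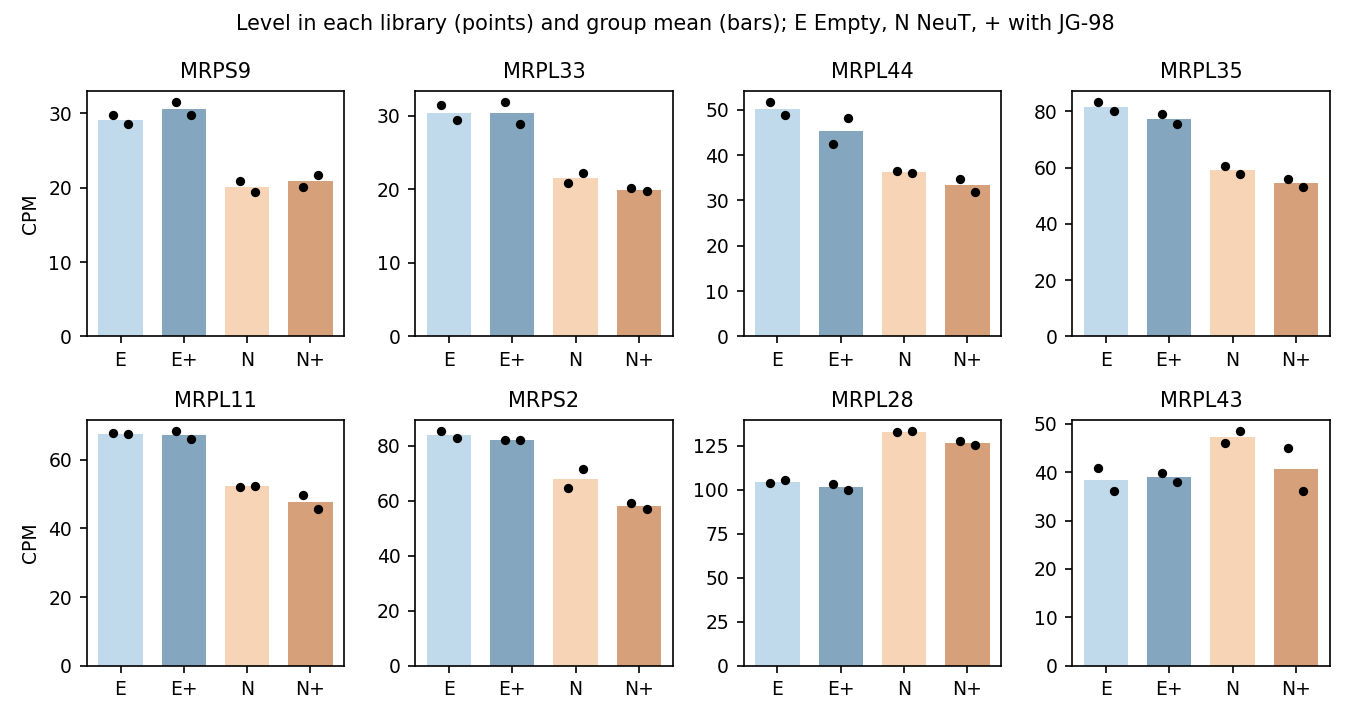
Level in CPM (linear axis from 0) of 8 MRP genes in each library (points) with the group mean (bars); E is Empty, N is NeuT and + marks JG-98. In MRPS9, MRPL33, MRPL44, MRPL35, MRPL11 and MRPS2 both kinds of NeuT bar are lower than both kinds of Empty bar, in MRPL28 they are higher, and in MRPL43 the NeuT libraries with JG-98 overlap the Empty ones.

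Other genes reported whatever their values were not called without drug. MRPS12, a protein of the decoding centre, was at 120.3 and 113.0 CPM in Empty and 114.0 and 119.6 CPM in NeuT, a log2 difference of 0.00 (SE 0.078). MRPS22, known from inherited mitochondrial disease, differed by -0.10, MRPS6 by -0.06, and MRPL58, a peptidyl-tRNA hydrolase built into the large subunit, by -0.09. MRPL41 differed by 0.16, and was called higher under 4 of 17 alternatives, among them the fit without replicate 1 of untreated Empty (0.27, adjusted p 0.040). Of the 3 related S18 proteins, MRPS18A differed by 0.15 and MRPS18C by -0.31 (SE 0.13, edgeR adjusted p 0.067), and MRPS18B had no counts. MRPS18C was called lower under 2 of 17 alternatives, total counts (-0.38, edgeR adjusted p 0.027) and only the 4 libraries compared (-0.30, 0.042).

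The size of the line difference depended on how libraries were scaled. With total counts and no scaling factors the median of all genes moved to -0.08 and that of the MRP genes to -0.19. The calls then numbered 34, of which 33 were lower, and 2.94% of the MRP calls were higher instead of 11.1%, while over all genes 40.7% of calls were higher instead of 50.5%. Leaving out 1 library changed the number of calls, which fell without replicate 2 of untreated Empty and without either replicate of untreated NeuT. The MRP median then lay between -0.14 and -0.084 over the fits with 1 library left out.

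Cytosolic ribosomal protein genes and respiratory chain genes were counted beside the MRP genes. Of 84 genes for proteins of the cytosolic ribosome 42 were higher and 3 lower in untreated NeuT, with a median log2 difference of 0.18. Of 81 nuclear genes for subunits of the respiratory chain, into which the products of mitochondrial translation are built, 3 were higher and 26 lower, with a median of -0.11. Shares called in these families are to be read against the same 21.2% and 20.8% of all genes. Leaving out 1 untreated library left 22 to 34 cytosolic genes higher and 12 to 16 respiratory chain genes lower, where 15.8% to 17.3% of all genes were higher and 14.6% to 15.2% lower.

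Proteins of the mitochondrial ribosome that carry no MRP symbol were mixed. AURKAIP1 fell by 0.25 on the log2 scale (edgeR adjusted p 0.0017) and PTCD3, a pentatricopeptide repeat protein of the small subunit, by 0.23 (0.011). GADD45GIP1, of the large subunit, rose by 0.31 (edgeR adjusted p 0.0090). Exonic bases shared with other genes were 29.6% for GADD45GIP1 and, of genes named below, 22.4% for NGRN and 32.3% for MRM3. DAP3 (0.03), a GTP-binding protein of the small subunit, and CHCHD1 (0.11) were not called. Leaving out 1 untreated library ended the call of PTCD3 in 2 cases, of GADD45GIP1 in 2 cases and of AURKAIP1 in 1 case.

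Among 25 tested genes for assembly and RNA modification factors of the mitochondrial ribosome, of 26 listed, 10 (40%) were lower and 1 (4.00%) higher in untreated NeuT, against 20.8% and 21.2% of all genes. The largest falls were those of RCC1L (-0.42), METTL17 (-0.41), an assembly factor of the small subunit, and RPUSD4 (-0.40), a pseudouridine synthase of the large ribosomal RNA. The rise was that of NGRN (0.46; edgeR adjusted p 3.1e-05), which is known to act together with RCC1L and RPUSD4. Of 14 mitochondrial translation factors 7 (50.0%) were lower and none higher (edgeR), beside the same shares of all genes, with the largest falls in MRRF (-0.60; adjusted p 3.0e-06), which releases ribosomes after termination, MTIF2 (-0.46), the initiation factor, and MTRF1 (-0.37), a release factor. The call of MTRF1 was lost under 5 of 17 alternatives, among them DESeq2 (adjusted p 0.071), limma-voom (0.051) and leaving out replicate 1 of untreated Empty (-0.26, adjusted p 0.27). With 1 untreated library left out 5 to 7 assembly factors and 2 or 3 translation factors were lower. The mitochondrial ribosomal RNAs MT-RNR1 and MT-RNR2 were listed at 0 in all libraries, so the RNA part of the particle was not analysed here.

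The lines were then compared under JG-98, with group means from libraries not used for those of the first comparison. Here 44 of 76 MRP genes (57.9%) were lower in NeuT and 2 (2.63%) higher, while of all genes 41.7% were called, 20.0% lower and 21.7% higher. The median log2 difference was -0.22, against 0.00 for all genes, and 66 of 76 were below 0 (61 without replicate 2 of NeuT with JG-98). In 53 MRP genes both NeuT libraries lay below both Empty libraries and in 2 above, against 33.6% and 34.0% of all genes. Falls numbered 32 of 50 in the large subunit and 12 of 25 in the small subunit, and 21 and 6 without replicate 2 of NeuT with JG-98.

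Of the 24 genes lower without drug 23 were also lower under it, which is 95.8% of the first list and 52.3% of the second; without replicate 2 of NeuT with JG-98, 18 of the 24 were. MRPS16 was called without drug (-0.17), a call lost under 5 of 17 alternatives, and not under the drug (-0.14, edgeR adjusted p 0.068). With total counts MRPS16 was called lower under the drug too (-0.21, edgeR adjusted p 0.0060). MRPL28 was the 1 gene higher in both. Across the 73 MRP genes with at least 100 counts in every library the 2 sets of line differences had a Pearson r of 0.84 and a Spearman rho of 0.81, across genes, which are not independent replicates. Over all 76 genes the Pearson r was 0.03 and the Spearman rho 0.64, with the low-count genes MRPL38, MRPL45 and MRPS24 included. Neither the overlap of calls nor the correlations were set beside values over all genes, so they are not shown to be particular to MRP genes. The 2 comparisons share the lines, and their group means share no library. Scaling and the spread used by the tests were estimated over all 8 libraries, so the 2 sets of calls are not independent.

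**Figure D3:**
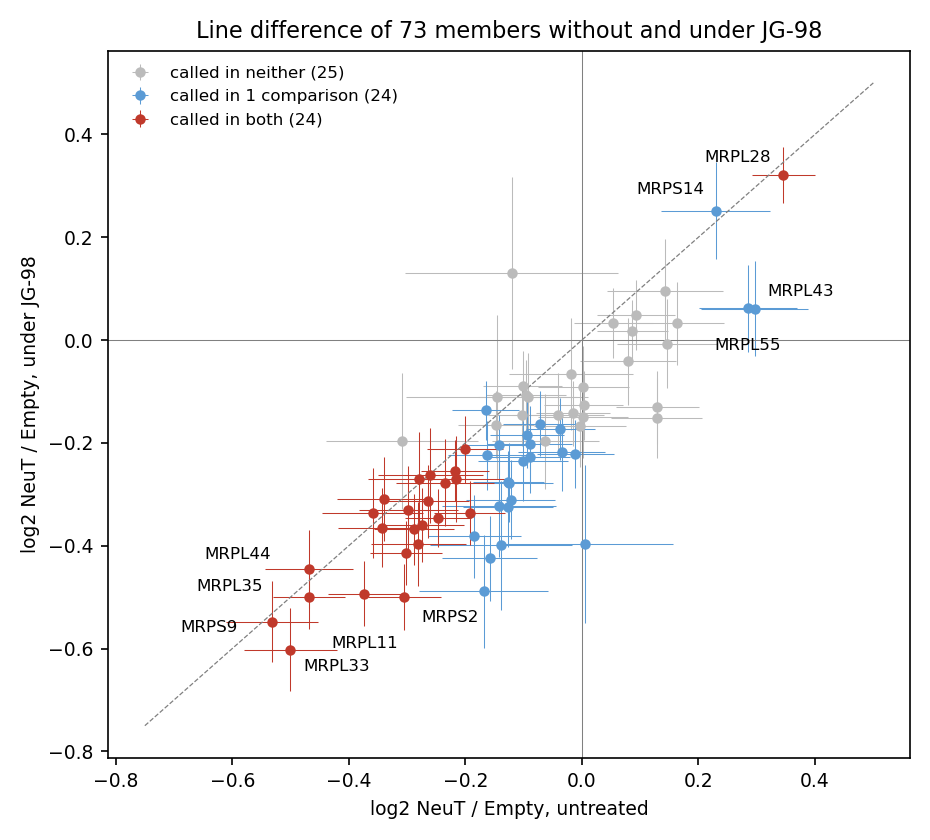
Log2 difference NeuT over Empty without drug (x axis) and under JG-98 (y axis) for the 73 MRP genes with at least 100 counts in every library, with bars of 1 SE and a dashed line of equality. The 24 genes called in both are in red, with MRPL28 at the upper right and MRPS9, MRPL33, MRPL44 and MRPL35 at the lower left; most points lie below the line of equality.

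MRPL33 was at 31.8 and 28.9 CPM in Empty with JG-98 and 20.2 and 19.7 CPM in NeuT with JG-98, or -0.60 on the log2 scale (SE 0.081; edgeR adjusted p 1.1e-05). MRPS9 differed by -0.55 (edgeR adjusted p 2.6e-05) and MRPL35 by -0.50 (4.9e-06), close to their values without drug. MRPS2, a small-subunit protein with a bacterial counterpart, was at 82.0 and 81.9 CPM in Empty and 59.0 and 57.0 CPM in NeuT, a difference of -0.50 (SE 0.064; edgeR adjusted p 6.3e-06). Without drug the difference of MRPS2 had been -0.30, from 85.1 and 82.6 CPM to 64.4 and 71.4 CPM. MRPL11 differed by -0.49 (edgeR adjusted p 7.6e-06), MRPL44 by -0.45 and MRPL3 by -0.41. In each of these genes the libraries of the 2 lines did not overlap under the drug.

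Among the genes called, MRPS24 had the largest fitted fall, -1.09 (SE 0.36; edgeR adjusted p 0.020), on 17 to 49 counts in a library. MRPL45, on still fewer counts in some libraries, had a larger fitted value that was not called (-1.67, SE 1.1). The call of MRPS24 was lost with DESeq2 (adjusted p 0.065), without replicate 2 of Empty with JG-98 (0.14) and without replicate 2 of NeuT with JG-98 (0.11). MRPS14 (chromosome 1), a small-subunit protein with a bacterial counterpart, was called higher, with 14.2 and 16.9 CPM in Empty and 19.1 and 18.1 CPM in NeuT (log2 difference 0.25, edgeR adjusted p 0.042). That call was lost under 10 of 17 alternatives, among them DESeq2 (0.058) and leaving out replicate 1 of Empty with JG-98 (0.34). MRPL28 was higher by 0.32 (SE 0.054; edgeR adjusted p 0.00013).

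The number of calls under the drug leaned on single libraries. It was 46 with all libraries, 31 (27 lower and 4 higher) without replicate 2 of NeuT with JG-98, 55 (54 lower and 1 higher) without replicate 1 of that group, and 29 (28 lower and 1 higher) without replicate 1 of Empty with JG-98. Of all genes 18.2%, 19.8% and 16.2% were called lower in these 3 fits, and 19.8%, 22.1% and 17.6% higher. The median stayed below 0 in all of these, at -0.15 without replicate 2 and -0.31 without replicate 1 of NeuT with JG-98. With total counts the MRP median was -0.30 and that of all genes -0.08. Then 56 of 57 calls were lower, and over all genes 41.0% of calls were higher instead of 52.0%.

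The comparison families were counted again under the drug. Cytosolic ribosomal protein genes were called higher in 24 and lower in 6 of 84 cases, with a median of 0.08, and respiratory chain genes were called higher in 2 and lower in 36 of 81 cases, with a median of -0.19. Without replicate 2 of NeuT with JG-98 the cytosolic genes had 43 calls higher and 2 lower (median 0.20), and without replicate 1 of that group 15 and 11 (median -0.01). The respiratory chain genes had 27 lower and 6 higher (median -0.10) without replicate 2, and 59 lower (median -0.30) without replicate 1. Without replicate 1 of Empty with JG-98 the respiratory chain genes had 24 lower. Of the 25 assembly factors 11 (44.0%) were lower and NGRN higher (0.40), against 20.0% and 21.7% of all genes. The largest falls were in NOA1 (-0.44), a GTPase, MRM3 (-0.42), a methyltransferase of the large ribosomal RNA, and METTL17 (-0.41). Of the 14 translation factors 5 (35.7%) were lower, beside the same 20.0% of all genes, and none higher (edgeR; 7 at an unadjusted p under 0.05): MRRF (-0.67), MTRF1 (-0.52), TACO1 (-0.31), MTIF2 (-0.31) and GFM1 (-0.15), and the call of GFM1 (adjusted p 0.042) was lost under 10 of 17 alternatives and that of MTRF1 under 2, with -0.35 (adjusted p 0.11) without replicate 1 of Empty with JG-98. Without replicate 2 of NeuT with JG-98 there were 9 assembly and 4 translation factors lower, and without replicate 1 of Empty with JG-98 there were 8 and 3. AURKAIP1 fell by 0.29.

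The promoter motifs were set beside the line difference. MRP genes with the ETS letters in a window had a median of -0.09 without drug, with 7 of 29 called lower, and those without them -0.13, with 13 of 38 called lower, where 20.8% of all genes were. Under JG-98, where 20.0% of all genes were called lower, the medians were -0.15 (12 of 29) and -0.28 (25 of 38). For the YY1 letters the medians without drug were -0.09 with them (4 of 20 called lower) and -0.12 without (16 of 47), and under JG-98 -0.27 (12 of 20) and -0.20 (25 of 47). Without replicate 2 of NeuT with JG-98 the 4 counts under the drug were 5 of 29, 19 of 38, 6 of 20 and 18 of 47, where 18.2% of all genes were called lower. None of these differences was tested.

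Neighbours that share a start region did not always move with the MRP gene. MRPL47 (-0.27) and NDUFB5 (-0.31; edgeR adjusted p 0.0033) were both lower in untreated NeuT, as were MRPL57 (-0.26) and SKA3 (-0.89; edgeR adjusted p 2.7e-05), whose starts are 43 bases apart. The call of MRPL47 was lost without replicate 1 of either untreated group (adjusted p 0.051 and 0.060) and that of MRPL57 without replicate 2 of untreated NeuT (0.070). By contrast EME2 was higher by 0.72 (edgeR adjusted p 5.2e-06) while MRPS34, 52 bases away, differed by -0.10 and was not called. MITD1 was higher by 0.38 (edgeR adjusted p 0.0029) beside MRPL30 at -0.01. These pairs were picked from 17 MRP genes after their values were seen.

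The next comparisons asked what JG-98 did within each line. In Empty cells no MRP gene was called by edgeR, DESeq2 or limma-voom (3 of 76 had an unadjusted p under 0.05, against 9.83% of all genes), where edgeR called 0.339% of all genes, 0.26% higher and 0.0791% lower. Their median log2 difference, treated over untreated, was 0.01, with 40 above and 36 below 0. In 15 genes both treated libraries were higher and in 9 lower, where all genes gave 20.9% and 22.2%. The largest differences, none of them called, were in MRPL45 (1.38, SE 1.1), MRPL38 (0.51) and MRPL23 (0.32, SE 0.11; edgeR adjusted p 0.29) upwards and in MRPS36 (-0.20), MRPS26 (-0.18) and MRPS34 (-0.18) downwards. MRPL23, a large-subunit protein at the exit of the nascent chain tunnel, was at 11.6 and 11.2 CPM without drug and 15.2 and 13.4 CPM with it. MRPS34 was at 143.9 and 135.1 CPM without and 128.8 and 118.3 CPM with the drug.

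In NeuT cells edgeR also called none of the 76, where 3.01% of all genes were called, 1.01% lower and 2.01% higher. At an unadjusted p under 0.05 there were 12 MRP genes, against 16.0% of all genes. DESeq2 called 1, limma-voom 0, and edgeR without a filter on low counts 3, all lower. The shares of all genes called in those fits are not given here. The median was -0.08, 67 of 76 were below 0, and in 32 genes both treated libraries lay below both untreated libraries and in 0 above, where all genes gave 22.9% and 21.9%. The largest differences downwards were in MRPL45 (-1.28, SE 1.2), MRPS24 (-1.11, SE 0.35; edgeR adjusted p 0.11) and MRPL27 (-0.27, SE 0.082; edgeR adjusted p 0.095), and upwards in MRPS18C (0.07), MRPS9 (0.06) and MRPS36 (0.05). MRPL27, a large-subunit protein that reaches towards the peptidyl transferase centre in bacteria, was at 27.8 and 31.5 CPM untreated and 26.1 and 23.1 CPM treated. MRPS2 was at 64.4 and 71.4 CPM untreated and 59.0 and 57.0 CPM treated, a difference of -0.23 (edgeR adjusted p 0.064).

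The 2 treated NeuT libraries differed in this. Set against the mean of the untreated NeuT libraries, the MRP median was -0.16 in replicate 2 of NeuT with JG-98, with 73 of 76 genes below 0, and -0.02 in replicate 1, with 44 of 76 below 0. The 2 treated Empty libraries were at 0.04 and -0.02 against their untreated mean. Without replicate 1 of NeuT with JG-98 the test called 19 MRP genes, all lower, where 5.39% of all genes were called lower and 6.54% higher. Without replicate 2 it called 0 MRP genes, and 0.769% and 1.24% of all genes. The MRP medians of these fits were -0.16 and -0.02.

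**Figure D4:**
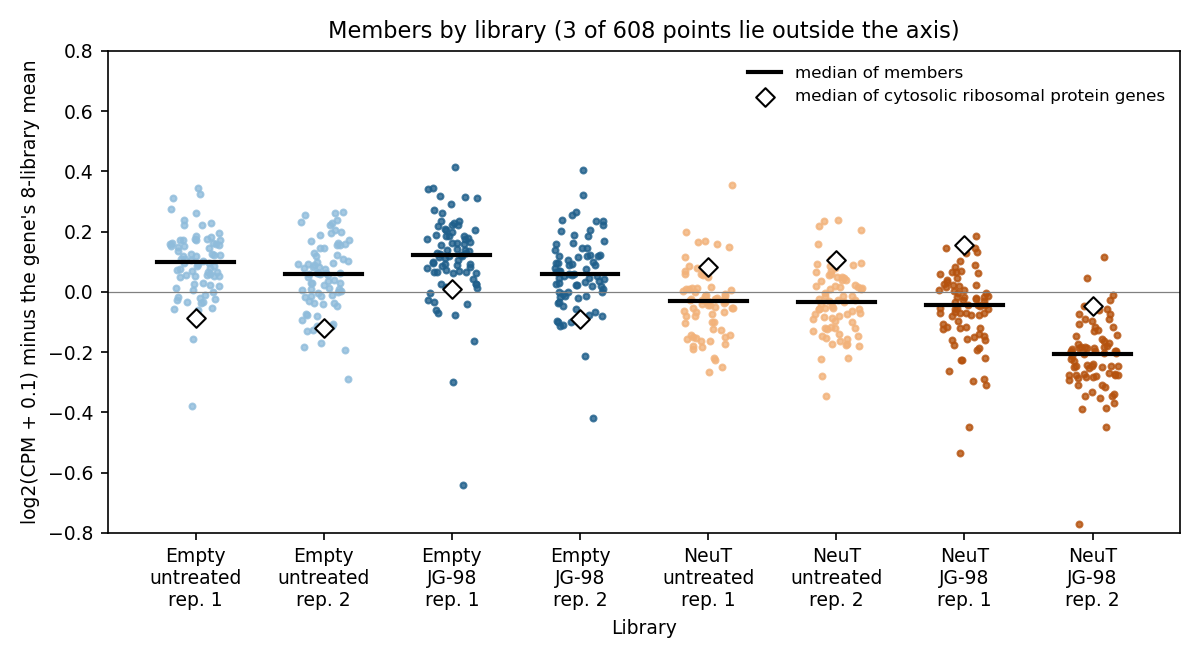
Log2(CPM + 0.1) of each MRP gene minus its mean over 8 libraries, 1 point per gene and library (3 of 608 points lie outside the axis), with the median of MRP genes (line) and of cytosolic ribosomal protein genes (diamond). The MRP medians are 0.06 to 0.12 in the Empty libraries, -0.03 to -0.05 in 3 NeuT libraries and -0.21 in replicate 2 of NeuT with JG-98, where the cytosolic genes are also lower than in the other NeuT libraries.

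The other families and short genes also differed between treated replicates, in both lines. Replicate 2 minus replicate 1 of NeuT with JG-98 had a median of -0.14 over MRP genes (72 of 76 below 0), -0.18 over cytosolic ribosomal protein genes, -0.20 over respiratory chain genes and 0.00 over all genes. In Empty with JG-98 the same medians were -0.06 (57 of 76 below 0), -0.10, -0.09 and 0.00. When expressed genes (mean log2 CPM over 3) were split into 4 equal parts by exonic length, the shortest part (156 to 3419 bases), which held 50 of the 68 MRP genes counted, had a median of -0.09 between these replicates and the longest (7879 to 55886 bases) 0.09. In Empty with JG-98 these were -0.05 and 0.05, in untreated Empty -0.03 and 0.02, and in untreated NeuT 0.01 and -0.02. For the change with JG-98 in NeuT the 4 medians over all genes were -0.04, -0.02, 0.00 and 0.04 from shortest to longest, and the MRP genes within the 4 parts had -0.08, -0.11, -0.09 and -0.06. The line difference without drug had no such gradient, at 0.02, -0.01, -0.01 and -0.01, beside -0.12, -0.12, -0.11 and -0.09 for the MRP genes. Under the drug the line difference was -0.05, -0.02, 0.01 and 0.06 over all genes and -0.22, -0.27, -0.17 and -0.20 over MRP genes, or -0.14, -0.13, -0.12 and -0.17 without replicate 2 of NeuT with JG-98. The MRP counts in the 2 longest parts were 6 and 3. What part gene length has in the drug comparisons was not tested.

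**Figure D5:**
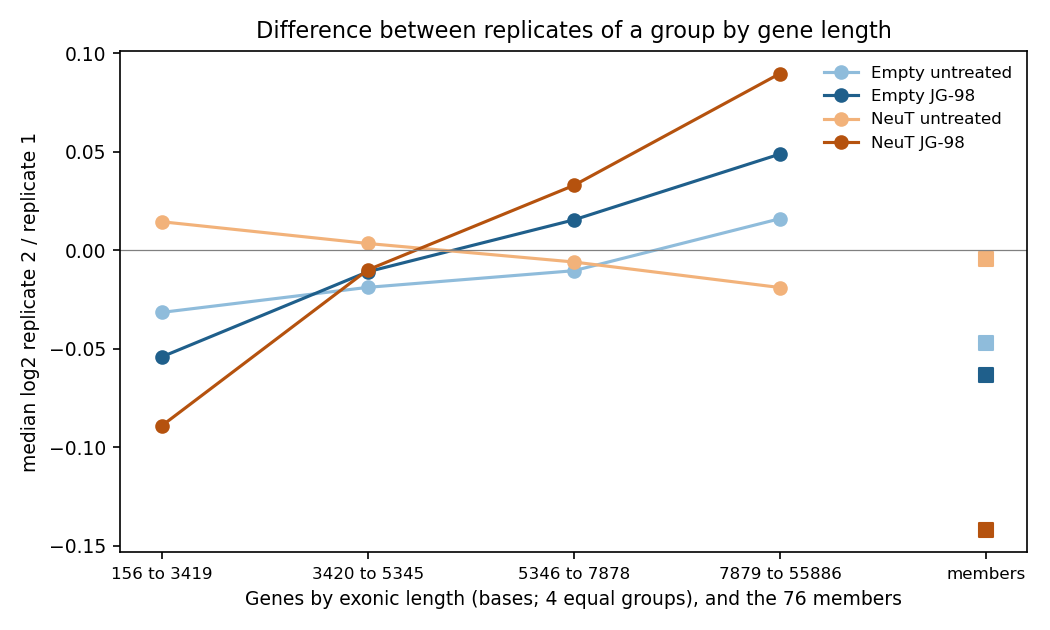
Median log2 ratio of replicate 2 to replicate 1 in each group for expressed genes in 4 equal parts by exonic length, and for the 76 MRP genes (squares). From the shortest to the longest genes the medians climb from -0.09 to 0.09 in NeuT with JG-98, from -0.05 to 0.05 in Empty with JG-98 and from -0.03 to 0.02 in untreated Empty, and go from 0.01 to -0.02 in untreated NeuT; the MRP genes are at -0.14, -0.06, -0.05 and 0.00.

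Whether the lines responded differently was tested by the interaction of line and drug. No MRP gene was called by edgeR, DESeq2 or limma-voom (6 of 76 had an unadjusted p under 0.05 in edgeR, against 7.79% of all genes), and edgeR called 0.00565% of all genes. The median was -0.10 for MRP genes, with 66 of 76 below 0, and it was -0.11 for cytosolic ribosomal protein genes and -0.08 for respiratory chain genes. Without replicate 1 of NeuT with JG-98 there were 7 calls, all lower, with a median of -0.19, where 1.62% of all genes were called lower and 2.63% higher. Without replicate 2 there were 0, with a median of -0.04. The largest values were in low-count genes, with MRPL45 at -2.66 (SE 1.6), MRPS24 at -1.29 (SE 0.48) and MRPL38 at -0.53 (SE 0.36) downwards and MRPS36 at 0.25, MRPS18C at 0.11 and MRPL46 at 0.03 upwards. The larger number of MRP genes lower in NeuT under the drug (44 against 24) is therefore not shown by a test of the difference for any single gene.

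Of the related lists 2 of the 25 assembly factors (8%) were called with the drug in NeuT, against 3.01% of all genes, and none of the 14 translation factors or of the 5 proteins without an MRP symbol (edgeR; 2 and 1 at an unadjusted p under 0.05). DHX30, an RNA helicase needed to assemble the mitochondrial ribosome, fell by 0.25 in NeuT (SE 0.062; edgeR adjusted p 0.032), and FASTKD2, an RNA-binding protein of mitochondrial RNA granules, fell by 0.25 (SE 0.063; edgeR adjusted p 0.035). In Empty they differed by -0.15 and -0.14 and were not called, and their interaction values of -0.11 and -0.11 were not called either (edgeR adjusted p 0.79 and 0.77). The call of DHX30 was lost under 5 of 17 alternatives and that of FASTKD2 under 9, including the fit without replicate 2 of NeuT with JG-98 (-0.18, adjusted p 0.15).

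The authors' deposited tables of treated against untreated cells held all 76 MRP genes. For Empty the authors' deposited table gave 0 of 76 an adjusted p under 0.05, with a lowest value of 0.342 (MRPL24), against 48 of 17698 genes. For NeuT the authors' deposited table gave 0 of 76 as well, with a lowest value of 0.0823 (MRPS2), against 525 of 17698 genes. The median log2 fold changes of the MRP genes in the authors' deposited tables were 0.02 in Empty and -0.08 in NeuT, where 70 of 76 were below 0.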

How the data were processed

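RNA-seq counts of 8 libraries were used. Per the submitters' processing notes, FastQC 0.11.7, Trim Galore 0.5.0, HISAT2 2.1.0, SAMtools 1.9, featureCounts 1.6.3, limma and the builds hg38/GRCh38 were used; the use of strand and the treatment of reads with several matches are not given in the sources used here. The authors deposited raw counts per gene for all libraries and, per the file headers, 1 table per line with log2 fold changes, a test score, p-values and adjusted p-values. Groups came from sample titles; the number of columns matched to no sample was 0. Rows without a gene name numbered 0. The identifiers with a symbol numbered 60261. Coordinates are those of the count table (42 of the 76 MRP loci have the same coordinates in GENCODE 29).

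The deposited counts were fitted in R 4.3.3 with edgeR 4.0.16 (filterByExpr with a minimum count of 10, TMM, robust quasi-likelihood, 1 coefficient for each of 4 groups, all 8 libraries, 5 contrasts), with Benjamini-Hochberg adjustment over 17693 genes. SE is the log2 difference divided by the square root of F. Per-library log2 values used a pseudocount of 0.1 CPM. Alternatives (17) were RLE and total-count scaling, 2 filters, DESeq2 1.42.0, limma-voom (limma 3.58.1), no robust estimation, the replicate block, only the libraries compared, and leaving out each library. Scripts were tested on simulated data. A count of 0 allows up to 3 counts, 0.0528 to 0.0803 CPM, a limit for counting error only, as PCR copies were not marked by molecular identifiers. An exact permutation test of 2 libraries against 2 cannot reach 0.05.

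The members and lists were chosen with earlier results of these data known. Named were all called members where 10 or fewer were called, else the 6 largest each way, with 3 each way where fewer than 3 were called, the 5 highest and lowest levels, and a fixed set of 11 genes. The split by gene length, the comparison of treated libraries by replicate, the position tally of the YY1 letters, the values of head-to-head neighbours and the checks of pseudogenes and of the MRPS18B region were added after values were seen, and the promoter stretches shown were picked from windows that hold the letters.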

Additional observations from a re-analysis of the deposited data

How the results depend on the processing

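The MRP medians of both line differences stayed below 0 under all alternatives, while their numbers of calls moved with single libraries of either line. With total counts the MRP median was -0.19 for the lines without drug and -0.30 under JG-98. For JG-98 in NeuT the 0 calls became 3 with no filter and 1 with DESeq2, and the cause was not tested. These counts are not set beside the shares of all genes called in the same fits. Leaving out 1 library in turn gave 14 to 34 calls and medians of -0.14 to -0.084 for the lines without drug, 29 to 55 calls and -0.31 to -0.15 under JG-98, 0 calls and -0.018 to 0.043 for JG-98 in Empty, 0 to 19 calls and -0.16 to -0.024 for JG-98 in NeuT, and 0 to 7 calls and -0.19 to -0.043 for the interaction. Such fits leave 1 sample in a group, which is assumed to vary like the others. Of the genes recomputed under the alternatives (those whose values are printed, head-to-head neighbours and cell type markers aside), 1 or more values changed sign in the following, none of them called. For the lines without drug these were MRPS12 (-0.043 to 0.048 with 1 library left out, -0.067 with total counts), DAP3 (-0.012 to 0.069, and -0.041 with total counts), MRPL30 (-0.031 to 0.016) and MRPS5 (-0.083 to 0.011). With 1 library left out they were the following. For JG-98 in Empty, whose median itself changed sign, these were MRPL45 (-0.55 to 2.09) and MRPS36 (-0.53 to 0.11), and for JG-98 in NeuT MRPL45 (-2.10 to 0.77), MRPS18C (-0.054 to 0.19), MRPS36 (-0.075 to 0.16) and MRPS9 (-0.0089 to 0.11). For the interaction they were MRPL46 (-0.16 to 0.19), MRPS18C (-0.015 to 0.23) and MRPS36 (-0.054 to 0.58). The labels do not say that replicate numbers pair the libraries. Replicate differences of the 2 groups with JG-98 correlated with r of 0.23 over 9609 genes, those of the untreated groups with -0.01, and the other pairs of groups with -0.10 to 0.07. With the replicate number as a block, 29 MRP genes were called without drug (26 lower), 47 under JG-98 (45 lower), and 0 in the other comparisons. The shares of all genes called in this fit are not given here, so these counts are not set against all genes. The low counts of MRPL45, MRPS24 and MRPL38 limit what could be detected for them.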
